A study of Homo sapiens with 42 samples.

Results

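The genes described here are 47 genes whose products carry a cell through mitosis, chosen by name and found in the count tables through their Ensembl identifiers. All 47 were present among the 58243 genes of the tables, and each was placed in 1 of 8 role groups: 8 mitotic entry kinases, phosphatases and cyclins, 4 subunits of the chromosomal passenger complex, 5 spindle checkpoint genes, 4 genes of the anaphase-promoting complex (APC/C) pathway and of chromatid separation, 7 kinetochore genes, 7 spindle motors and microtubule proteins, 5 cytokinesis genes and 7 genes of chromosome condensation and of the chromosome surface. They were measured in K562, a human chronic myeloid leukaemia cell line that carries the BCR::ABL1 fusion kinase. Control cells (CTRL) received no agent, and the others received 1 µM imatinib (IM, an inhibitor of the BCR::ABL1 kinase), 5 µM JTE-607 (JTE, an inhibitor of the pre-mRNA 3′ end cleavage factor CPSF73), or 110 mM KCl (a hyperosmotic salt stress). Polyadenylated RNA (mRNA) was sequenced in 27 libraries of 9 groups, which were CTRL, IM 1h, IM 6h, IM 18h, JTE 1h, JTE 6h, JTE 18h, KCl 1h and KCl 3h. Nuclear RNA was sequenced in 15 libraries of 5 groups, which were CTRL, IM 1h, IM 18h, JTE 1h and KCl 1h. Each group had 3 biological replicates, all of 1 cell line, so p-values measure the spread between cultures of that line. The comparisons asked how much of each gene's transcript was found after each treatment, relative to CTRL of the same fraction.

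As background, the proteins act in sequence. Cyclin B with CDK1 starts mitosis once CDC25 phosphatases remove inhibitory phosphates from the kinase, and condensin and topoisomerase II compact the chromosomes. Kinetochores then attach to spindle microtubules, and the spindle checkpoint holds the APC/C until all chromosomes are attached, after which separase cuts cohesin and the cell divides. The transcripts of most of these genes rise in G2 and M phase, and their promoters are known for CHR elements, bound by MuvB complexes, and for CCAAT boxes, bound by NF-Y.

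Promoter windows from 250 bases before to 50 bases after the transcription start (RefSeq, GRCh38.p14, the first listed start of a gene) were found for 41 of the 47 genes. AURKA, BIRC5, BUB3, TPX2, TTK and UBE2C had no entry. The CHR letters TTTGAA or TTCGAA, on either strand, were found in 30 of the 41 windows (73.2%), against 16.6% of the windows of all 27305 genes. The letters CCAAT, on either strand, were also found in 30 windows (73.2%), against 35.7% of all windows. Both motifs were found together in 23 windows (56.1% against 6.58%), and 18 windows held at least 2 CCAAT matches before the start (43.9% against 10.2%). TATAAA was found in 2 windows (4.88% against 12%). These are letter matches and not measured binding sites. The 120 bases before the start are shown, 5′ to 3′, for 8 of the genes called in the comparisons with IM or JTE, with each CHR and CCAAT match in capitals (ATTGG is CCAAT on the other strand). The first 4 are genes higher after IM and the last 4 are genes lower after JTE.
CDC25C, chr5:138338356-138338475, minus strand: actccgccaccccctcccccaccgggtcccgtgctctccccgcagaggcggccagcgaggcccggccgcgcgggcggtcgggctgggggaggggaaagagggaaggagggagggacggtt
NDC80, chr18:2571437-2571556, plus strand: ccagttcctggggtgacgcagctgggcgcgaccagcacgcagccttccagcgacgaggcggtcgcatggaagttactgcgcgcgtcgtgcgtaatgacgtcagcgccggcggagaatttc
NUSAP1, chr15:41332761-41332880, plus strand: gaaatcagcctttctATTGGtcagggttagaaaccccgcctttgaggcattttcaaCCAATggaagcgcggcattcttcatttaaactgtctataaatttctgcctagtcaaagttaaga
HMMR, chr5:163460512-163460631, plus strand: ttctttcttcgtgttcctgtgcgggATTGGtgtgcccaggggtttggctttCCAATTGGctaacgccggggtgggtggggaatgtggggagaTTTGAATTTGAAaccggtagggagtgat
CDC25B, chr20:3786831-3786950, plus strand: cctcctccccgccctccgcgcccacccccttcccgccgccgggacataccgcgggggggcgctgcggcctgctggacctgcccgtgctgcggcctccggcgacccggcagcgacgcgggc
SPC24, chr19:11155783-11155902, minus strand: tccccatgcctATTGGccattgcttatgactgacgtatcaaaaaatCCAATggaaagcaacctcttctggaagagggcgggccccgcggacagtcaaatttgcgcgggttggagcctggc
CDC20, chr1:43358861-43358980, plus strand: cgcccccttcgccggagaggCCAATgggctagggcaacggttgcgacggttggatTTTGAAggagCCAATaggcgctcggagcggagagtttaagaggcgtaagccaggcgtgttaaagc
PLK1, chr16:23678769-23678888, plus strand: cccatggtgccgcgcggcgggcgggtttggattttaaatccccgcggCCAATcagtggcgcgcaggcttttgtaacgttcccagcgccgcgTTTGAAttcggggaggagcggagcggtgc
No match lay in the stretches of CDC25C and CDC25B, taken before the first listed start. Of the NDC80 matches 1 spanned the start and 1 lay after it, so that neither lay wholly in the bases shown. Other starts of these genes were not searched, so the windows cannot show that a gene lacks the motifs. Among the 7 genes called higher at IM 18h, 5 windows held a CHR match and 4 a CCAAT match. Among the 5 genes called lower with JTE, the numbers were 3 and 4, so windows with and without the motifs were found in both sets.

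Total counts ran from 16439848 to 62953314 in the mRNA libraries and from 16175394 to 25103205 in the nuclear libraries. The deepest were KCl 1h replicates 2 and 3 of the mRNA fraction. All 10 K562 markers were expressed in all 42 libraries. Markers of T cells, B cells, monocytes and fibroblasts reached at most 19.0 CPM (counts relative to the library size, scaled with edgeR's TMM factors), with CD2 at or below 0.0595 CPM, and the epithelial genes EPCAM and KRT19 were at 35.6 to 129 CPM. At IM 18h in mRNA 7 of the 10 K562 markers, globin genes among them, were called higher, and the summed level of all 10 was 11099 to 15454 CPM, against 4430 to 5365 CPM in CTRL. The part of this shift in the results for mitotic genes was not tested. In bulk libraries a change in the number of cells in G2 and M phase and a change in transcript per cell cannot be told apart.

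In untreated cells, all 47 genes were detected. On a per-length scale (RPKM, the CPM divided by exon length in kilobases), the mRNA of the spindle assembly factor TPX2 was the most abundant at a mean of 124, followed by the decatenating enzyme TOP2A at 119 and the cyclins CCNB1 at 103 and CCNA2 at 99.6. The lowest were the phosphatase CDC25C at 7.87 RPKM, separase (ESPL1) at 7.67 RPKM and the APC/C ubiquitin-conjugating enzyme UBE2C at 0.34 RPKM. The UBE2C value rested on 6 to 10 counts per library. Read pairs that mapped to more than 1 place or were ambiguous were not counted. The part of such uncounted reads in the low UBE2C level was not tested. Of the 46 pairs of neighbours in this order, 42 overlapped in their replicate values, so the order was resolved only at 4 steps, such as between ESPL1 and UBE2C. In nuclear RNA, TPX2 at 122 RPKM again stood first, CCNB1 at 97.2 and the APC/C activator CDC20 at 93.9 followed, and UBE2C at 0.574 RPKM was last. There, 41 of the 46 pairs of neighbours overlapped.

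**Figure D1:**
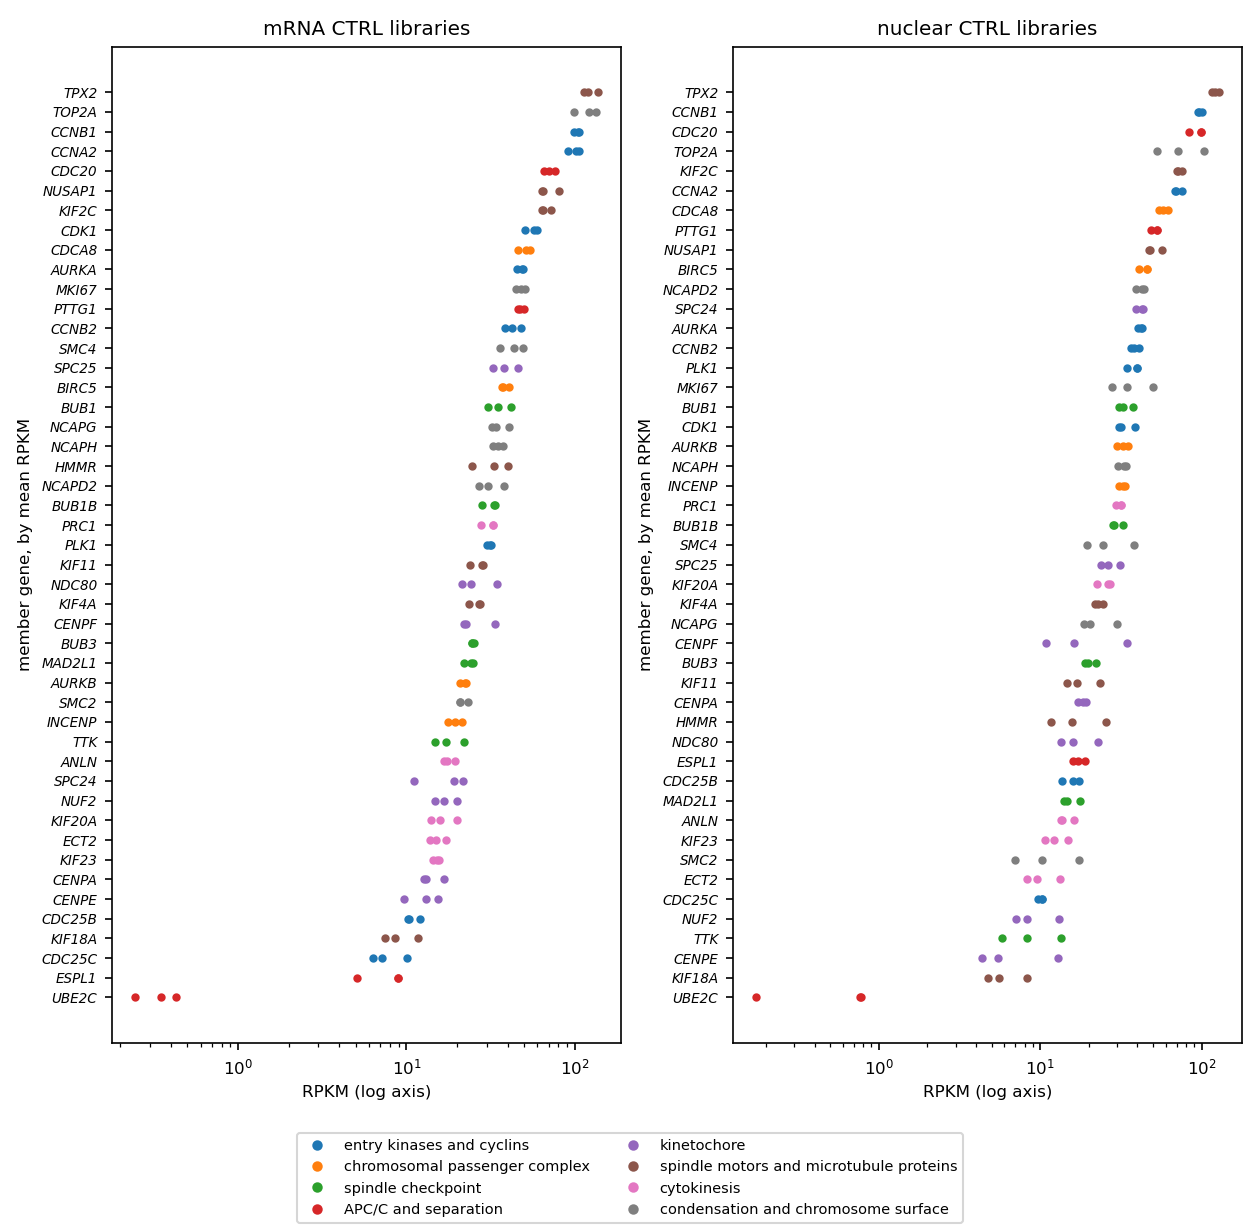
Level of each of the 47 genes in the 3 CTRL libraries of the mRNA (left) and nuclear (right) fractions, in RPKM on a log axis, ordered by mean and coloured by role group. Each point is 1 library. UBE2C lies apart at the bottom of both panels, on 6 to 10 counts per library in mRNA CTRL.

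The replicates of CTRL varied unequally between genes. The coefficient of variation of the mRNA level ran from 1.62% for the checkpoint gene BUB3 to 31.9% for the kinetochore gene SPC24, with a median of 9.77%. The 7 genes later called higher at IM 18h had a median of 25.2% (13.9% to 28.8%), and the other 40 had a median of 9.15%. In nuclear CTRL the kinetochore motor CENPE reached 61.5%, with 122, 51.7 and 40.9 CPM in the 3 replicates. Replicate 1 had the highest summed level of the 47 genes in 5 of 5 nuclear groups and in 6 of 9 mRNA groups. Fits with the replicate number as a block are given where they change a call, and for NDC80 in nuclear RNA at IM 18h.

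Across the 12 comparisons with CTRL, 14 of the 47 genes (29.8%) were called in at least 1, and 33 in none (background 60.1% of all genes tested in both fractions called in at least 1). A gene was called when its edgeR adjusted p was under 0.05 and its log2 fold change was beyond 0.6 in either direction. The backgrounds beside called genes are shares of all genes under this rule. They come from the fits without a block. They do not apply to blocked fits, to counts at an adjusted or unadjusted p alone, or to counts of fold changes above or below 0. For these no share over all genes is given. All 47 genes passed the filter on low counts in both fractions, among 18095 mRNA and 21929 nuclear genes tested. In mRNA, UBE2C passed it only through the JTE and KCl libraries in which it was high. Its mRNA calls with these agents are therefore not independent of the filter. With IM the called genes were higher in mRNA, with JTE 5 genes were called lower in mRNA and UBE2C higher, and with KCl UBE2C was the 1 gene called. All comparisons of 1 fraction share the same 3 CTRL libraries.

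**Figure D2:**
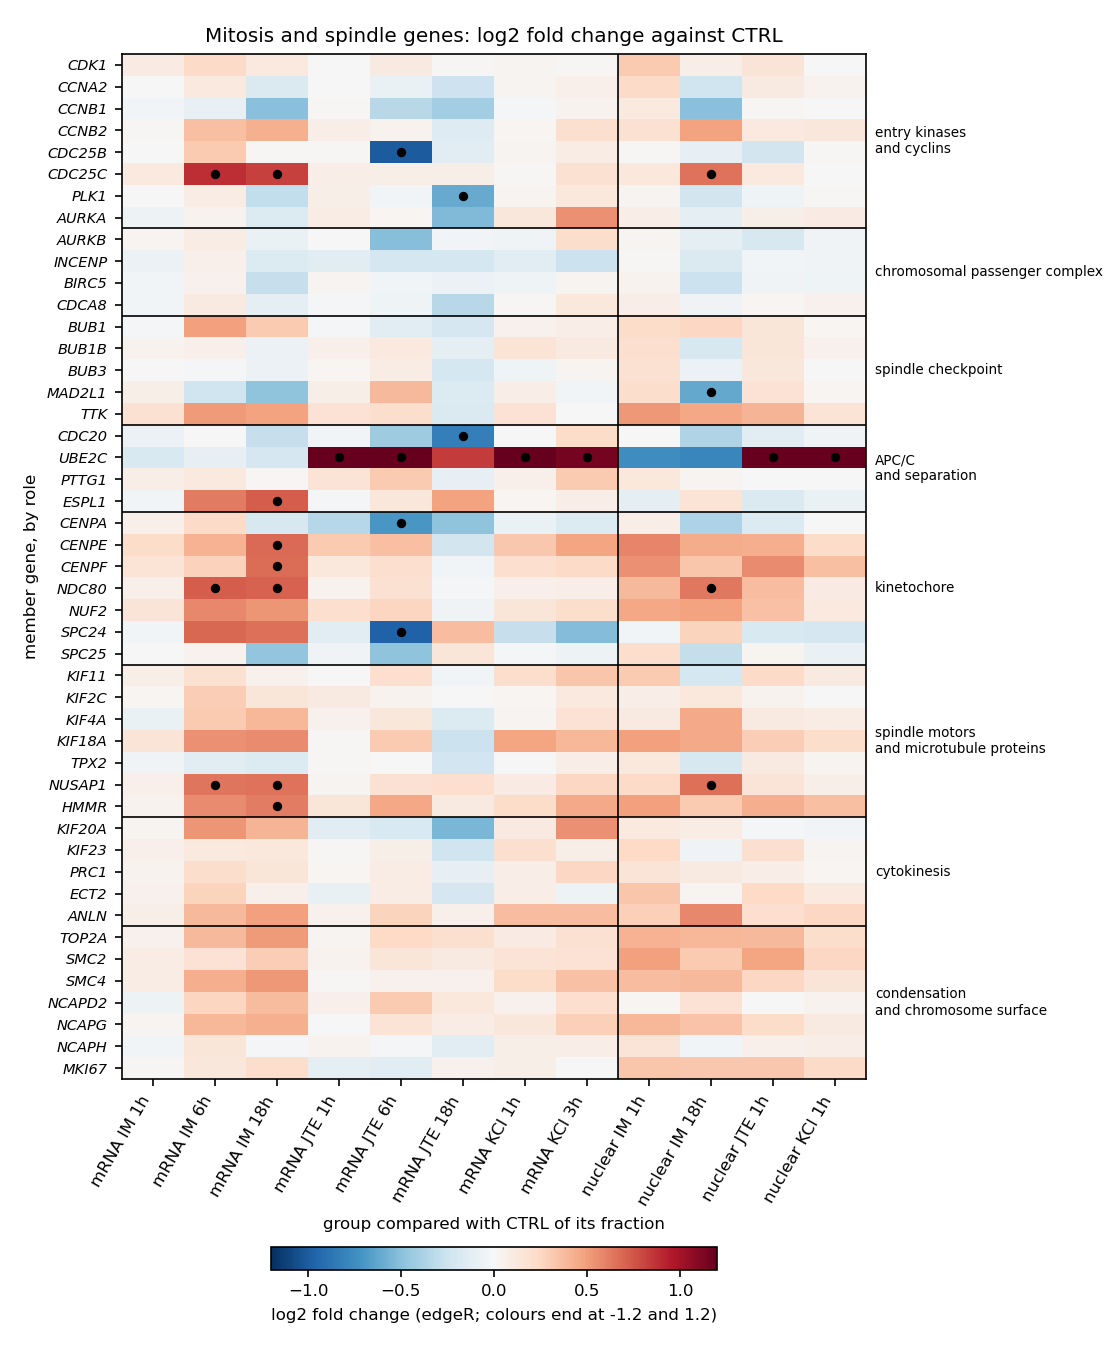
Log2 fold change of each of the 47 genes (rows, by role group) against CTRL of its fraction in the 12 comparisons (columns). Red is higher, blue is lower, and a black dot marks a called gene; 14 genes carry at least 1 dot.

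IM 1h called none of the 47 genes in mRNA (edgeR; background 0.0166% of all genes tested), none at an unadjusted p under 0.05 and none with DESeq2. For 41 of the 47 genes, the 95% interval of the log2 fold change lay within 0.6 of 0. At IM 6h, 3 genes were called higher and none lower (background 5.82% higher and 4.12% lower), with 11 genes at an adjusted p under 0.05, 42 of 47 fold changes above 0, and a median of 0.23 against 0.04 over all genes tested. At IM 18h, 7 genes were called higher and none lower (background 17.2% higher and 13.2% lower). There 22 genes had an adjusted p under 0.05, 16 higher and 6 lower, a looser rule that these backgrounds do not cover. The median was 0.14 against 0.04. The 14.9% of the 47 genes called at IM 18h was below the 30.5% of all genes called in either direction. Leaving out 1 library at a time gave between 1 called gene, without CTRL replicate 3, and 11, without CTRL replicate 2. At IM 6h it gave between 1 and 5. With the replicate number as a block, 5 genes were called higher at IM 6h, ESPL1 (log2 0.64) and SPC24 (0.72) in addition, and 8 at IM 18h, with the same genes whether or not mRNA CTRL replicates 1 and 2 were exchanged, since their numbering is uncertain.

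Among the mitotic entry genes, the phosphatase CDC25C, which activates CDK1, was higher after IM. Its mRNA was at 19.3, 30.9 and 21.7 CPM in CTRL, at 48.1, 44.6 and 40.3 CPM at IM 6h, and at 48.2, 39.9 and 39.1 CPM at IM 18h. Every IM 6h and IM 18h library lay above every CTRL library. The fold change was 1.85 at 6 h (log2 0.89 ± 0.19 SE, edgeR adjusted p = 0.00217) and 1.77 at 18 h (log2 0.82 ± 0.19 SE, edgeR adjusted p = 0.00116), and both calls held without any 1 library. Cyclin B1 (CCNB1), the partner of CDK1, was at 268, 272 and 253 CPM in CTRL and at 170, 180 and 209 CPM at IM 18h, with no overlap. Its log2 fold change of -0.50 ± 0.13 SE (edgeR adjusted p = 0.00369) stayed inside the fold threshold, while cyclin B2 (CCNB2) rose by 0.42 ± 0.11 SE (edgeR adjusted p = 0.00275). CDK1 itself had a log2 fold change of 0.12 with a 95% interval from -0.14 to 0.38, and CDC25B one of 0.02 (-0.26 to 0.29). The median of the 8 entry genes was -0.07 at IM 18h, and 9.62% of the exon bases of CDC25C overlap the gene FAM53C.

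The chromosomal passenger complex (AURKB, INCENP, BIRC5 and CDCA8), which corrects faulty attachments, was not called at IM 18h, and all 4 fold changes were below 0 with a median of -0.14. Survivin (BIRC5) was at 143, 141 and 155 CPM in CTRL and at 122, 123 and 119 CPM at IM 18h, without overlap (log2 -0.27 ± 0.08 SE, edgeR adjusted p = 0.0104). Borealin (CDCA8), the most abundant of the 4, was at 114, 127 and 134 CPM in CTRL and at 115, 114 and 118 CPM at IM 18h, which overlapped. For all 4 genes the 95% interval lay within 0.6 of 0. Of the 5 checkpoint genes none was called in mRNA, with 2 at an unadjusted p under 0.05. MAD2L1, which forms the APC/C-inhibiting complex, was at 139, 143 and 127 CPM in CTRL and at 96.2, 105 and 90.4 CPM at IM 18h, again without overlap (log2 -0.49 ± 0.16 SE, edgeR adjusted p = 0.019). The kinase BUB1 was at 212, 253 and 183 CPM in CTRL and at 279, 247 and 281 CPM at IM 18h, with overlapping values (log2 0.32 ± 0.15 SE, edgeR adjusted p = 0.102). BUB3 was the steadiest, with a log2 fold change of -0.07 (95% interval -0.21 to 0.07).

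Among the 4 genes of the APC/C pathway and of separation, separase (ESPL1), the protease that opens cohesin, was called higher at IM 18h. It was at 79.6, 79.5 and 45.5 CPM in CTRL and at 111, 114 and 113 CPM at IM 18h, where all libraries were above CTRL (log2 0.73 ± 0.27 SE, edgeR adjusted p = 0.0307). The call was lost without CTRL replicate 3, in which ESPL1 was lowest, and without any of the IM 18h replicates. CDC20 was at 144, 133 and 156 CPM in CTRL and at 109, 111 and 137 CPM at IM 18h, which overlapped (log2 -0.28 ± 0.11 SE, edgeR adjusted p = 0.035). Securin (PTTG1), the inhibitor of separase, had a log2 fold change of 0.01 with a 95% interval from -0.17 to 0.20.

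The kinetochore genes held 3 of the 7 calls at IM 18h and had the highest median of the 8 role groups, 0.66. NDC80, which binds microtubules in the outer kinetochore, was at 86.7, 125 and 77.4 CPM in CTRL, at 171, 161 and 147 CPM at IM 6h and at 167, 156 and 149 CPM at IM 18h. All 6 IM libraries of 6 and 18 h lay above CTRL. Its log2 fold change was 0.73 ± 0.21 SE at 6 h (edgeR adjusted p = 0.0203) and 0.71 ± 0.21 SE at 18 h (edgeR adjusted p = 0.00926), and the call at 18 h was lost without CTRL replicate 3 alone. At 6 h it was lost on dropping replicate 1 or 3 of CTRL, or replicate 1 or 2 of IM 6h. NUF2, its partner in the NDC80 complex, rose by 0.53 ± 0.18 SE at 18 h (edgeR adjusted p = 0.022), inside the fold threshold. The other 2 subunits of that complex went apart. SPC24 was at 54.6, 61.5 and 31.5 CPM in CTRL and at 80.8, 79.3 and 73.7 CPM at IM 18h, above CTRL in each library but not past the test without a block (log2 0.66 ± 0.30 SE, edgeR adjusted p = 0.078). With the replicate number as a block it was called higher (log2 0.73 ± 0.17 SE, edgeR adjusted p = 0.000911), and also with mRNA CTRL replicates 1 and 2 exchanged (log2 0.73 ± 0.17 SE, edgeR adjusted p = 0.000777). SPC25 was at 60.1, 70.5 and 84.6 CPM in CTRL and at 49.4, 51.4 and 54.0 CPM at IM 18h, below CTRL in each library (log2 -0.48 ± 0.15 SE, edgeR adjusted p = 0.0113).

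CENPE, the motor that carries chromosomes to the spindle equator, was at 91.5, 145 and 123 CPM in CTRL and at 180, 204 and 191 CPM at IM 18h. CENPF, a large protein of the outer kinetochore, was at 264, 393 and 257 CPM in CTRL and at 431, 496 and 526 CPM at IM 18h. Neither gene overlapped between the groups. Their log2 fold changes were 0.68 ± 0.25 SE (edgeR adjusted p = 0.0306) for CENPE and 0.67 ± 0.27 SE for CENPF, whose adjusted p rounded to 0.05 from below. Among the spindle proteins, HMMR, a microtubule-binding protein of the spindle poles, was at 131, 159 and 96.9 CPM in CTRL and at 204, 183 and 206 CPM at IM 18h (log2 0.62 ± 0.22 SE, edgeR adjusted p = 0.0291). Among the fits with 1 library left out, CENPE, CENPF and HMMR kept their call only without CTRL replicate 2, in which all 3 were highest in CTRL. With no filter on low counts all 3 calls were lost, and with RLE scaling those of CENPF and HMMR. HMMR was also not called with DESeq2 or in the fit of only the 2 groups. The centromeric histone CENPA had a log2 fold change of -0.19 (95% interval -0.61 to 0.23).

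The bundling protein NUSAP1 was the other spindle gene called. It was at 184, 233 and 186 CPM in CTRL, at 314 CPM in each replicate of IM 6h and at 352, 314 and 283 CPM at IM 18h, with every IM 6h and IM 18h library above CTRL. The log2 fold change was 0.64 ± 0.12 SE at 6 h (edgeR adjusted p = 0.000625) and 0.65 ± 0.12 SE at 18 h (edgeR adjusted p = 0.000117). Since it lay close to the threshold of 0.6, the call fell away without CTRL replicate 1 or 3 at both times and also without IM 18h replicate 1. The call at 18 h was also lost with no filter on low counts. TPX2 was at 431, 495 and 411 CPM in CTRL and at 402, 388 and 402 CPM at IM 18h, below CTRL in each library (log2 -0.16 ± 0.10 SE, edgeR adjusted p = 0.171). The chromokinesin KIF4A rose by 0.40 ± 0.11 SE (edgeR adjusted p = 0.00377), and the bipolar spindle motor KIF11 had 0.05 (95% interval -0.19 to 0.30).

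None of the 5 cytokinesis genes or 7 condensation genes was called at IM 18h. At an adjusted p under 0.05 alone, 1 and 5 of them were higher and none lower, with no share of all genes to set beside these counts. The contractile ring protein ANLN was at 101, 105 and 116 CPM in CTRL and at 163, 139 and 151 CPM at IM 18h, without overlap (log2 0.49 ± 0.09 SE, edgeR adjusted p = 0.000187). The midzone protein PRC1 was at 180, 182 and 154 CPM in CTRL and at 190, 191 and 189 CPM at IM 18h (log2 0.14 ± 0.11 SE, edgeR adjusted p = 0.298). TOP2A was at 642, 867 and 780 CPM in CTRL and at 1138, 1013 and 1115 CPM at IM 18h (log2 0.51 ± 0.14 SE, edgeR adjusted p = 0.00392). The condensin subunit SMC4, 25.6% of whose exon bases overlap IFT80 and TRIM59, was at 367, 416 and 304 CPM in CTRL and at 565, 508 and 487 CPM at IM 18h (log2 0.52 ± 0.14 SE, edgeR adjusted p = 0.00525). The condensin subunits NCAPG, NCAPD2 and SMC2 rose by 0.43, 0.38 and 0.30, while NCAPH had -0.02 (95% interval -0.19 to 0.16). Between IM 18h and IM 6h none of the 47 genes was called (edgeR; background 4.41%), also not with DESeq2, and 9 had an unadjusted p under 0.05. PLK1, BIRC5 and SPC25 had an adjusted p under 0.05 there, all lower at 18 h, by 0.38, 0.33 and 0.52 on the log2 scale.

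**Figure D3:**
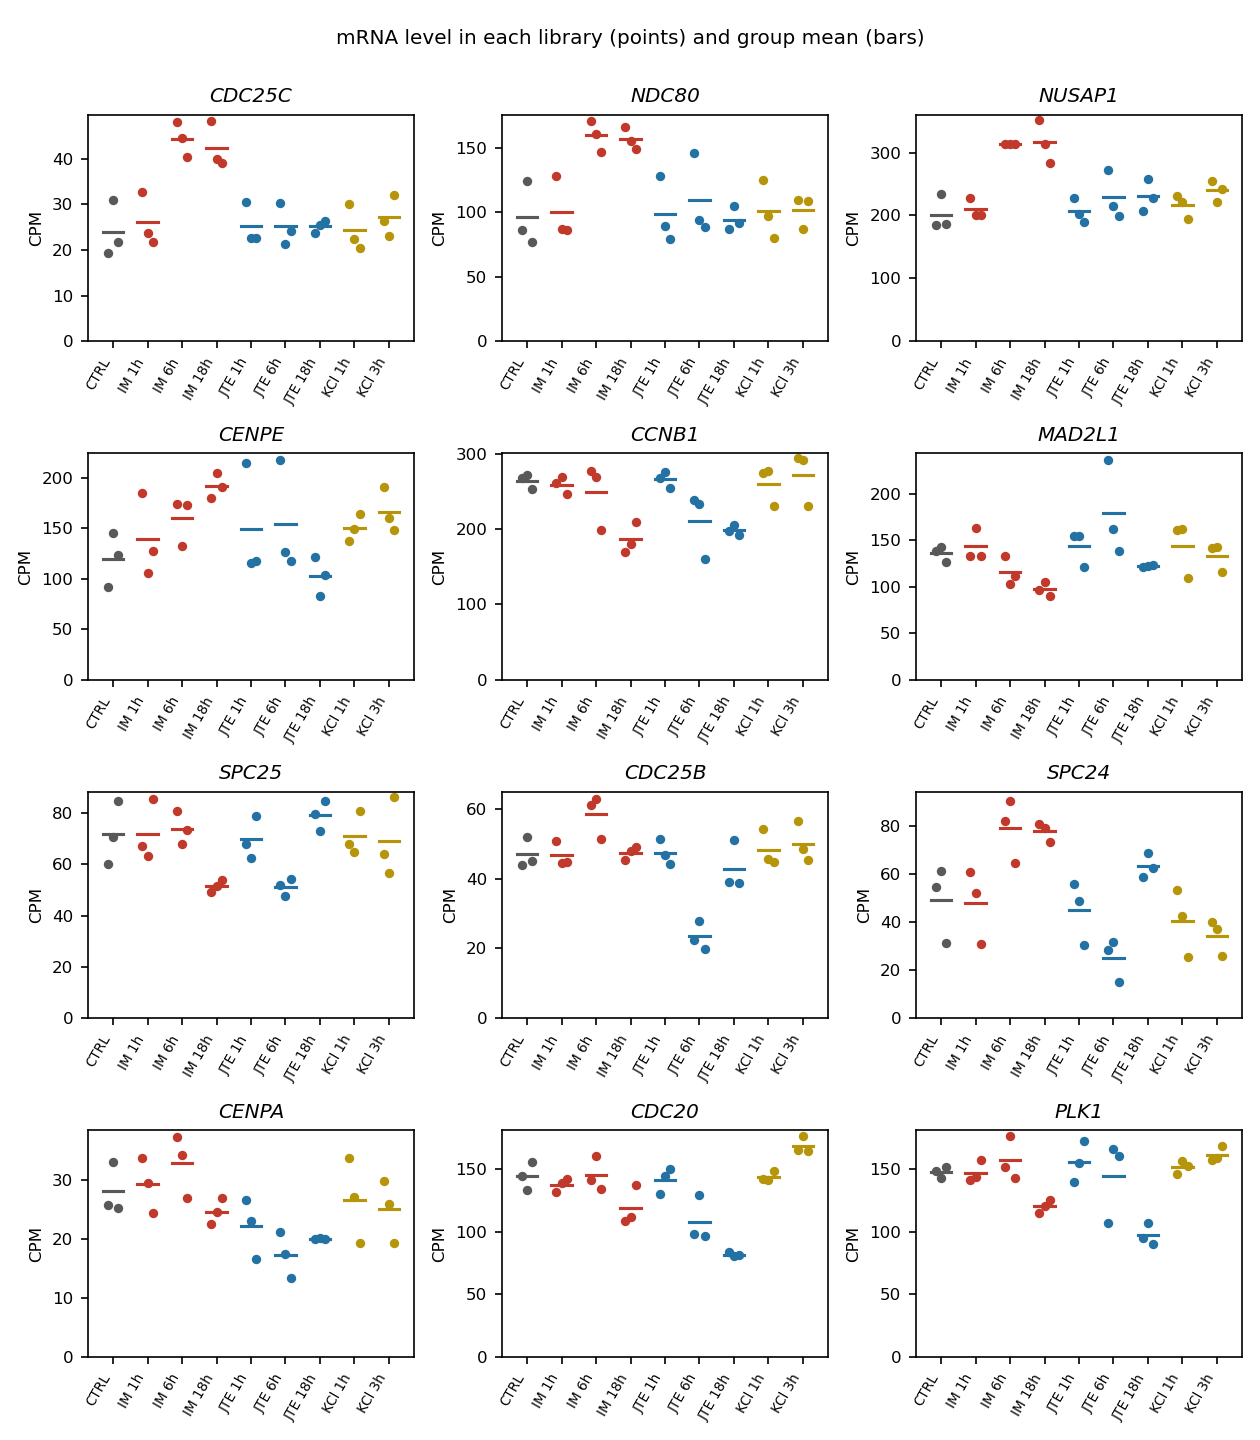
mRNA level in CPM of 12 genes in each library (points) and the mean of the 3 replicates (bars), by group; the vertical axes start at 0. CDC25C, NDC80 and NUSAP1 lie above CTRL at IM 6h and IM 18h, CDC25B and SPC24 dip at JTE 6h, and CDC20 and PLK1 are lowest at JTE 18h.

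In nuclear RNA, IM 1h called none of the 47 genes (edgeR; background 0.0456%), also not with DESeq2, and 4 genes had an unadjusted p under 0.05. With the replicate number as a block, CENPE (log2 0.65 ± 0.09 SE, edgeR adjusted p = 0.000145) and CENPF (log2 0.62 ± 0.11 SE, edgeR adjusted p = 0.00828) were called higher. The background above does not cover this blocked fit. CENPE was at 122, 51.7 and 40.9 CPM in nuclear CTRL and at 167, 84.5 and 72.2 CPM at IM 1h, so that it was higher in each of 3 pairs although the groups overlapped. CENPF was likewise at 406, 190 and 126 CPM in CTRL and at 530, 303 and 227 CPM at IM 1h. At IM 18h, 3 genes were called higher and 1 lower (background 17.2% higher and 15.4% lower), and 10 had an adjusted p under 0.05.

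The 3 higher genes at nuclear IM 18h were those already called at IM 6h in mRNA. Nuclear CDC25C was at 31.3, 31.2 and 29.7 CPM in CTRL and at 49.2, 46.1 and 49.6 CPM at IM 18h (log2 0.65 ± 0.11 SE, edgeR adjusted p = 6.88e-05), and this call held without any 1 library. Nuclear NUSAP1 was at 164, 135 and 137 CPM in CTRL and at 263, 211 and 215 CPM at IM 18h (log2 0.66 ± 0.12 SE, edgeR adjusted p = 0.000152), a call lost without IM 18h replicate 1. Neither gene overlapped between the groups. Nuclear NDC80 was at 82.0, 57.9 and 48.2 CPM in CTRL and at 124, 90.0 and 76.8 CPM at IM 18h. It was higher in each pair of same-numbered libraries although the groups overlapped (log2 0.63 ± 0.24 SE, edgeR adjusted p = 0.0491). The call was lost on dropping replicate 2 or 3 of CTRL, or replicate 1 or 2 of IM 18h. With the replicate number as a block, NDC80 was again called higher (log2 0.63 ± 0.08 SE, edgeR adjusted p = 7.38e-09). MAD2L1 was called lower, at 101, 83.8 and 80.4 CPM in CTRL and 61.7, 59.2 and 52.1 CPM at IM 18h, with no overlap (log2 -0.62 ± 0.14 SE, edgeR adjusted p = 0.00109). This call was lost on dropping replicate 1 or 2 of CTRL or replicate 3 of IM 18h, and with the other 2 scalings of library size. Leaving out single libraries gave 2 to 7 called genes, the 7 without nuclear CTRL replicate 1.

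The nuclear and mRNA responses were set side by side for the 47 genes. At IM 18h, 44 of the 47 had the same sign in both fractions, and Pearson's r across the genes was 0.903 (Spearman's rho 0.911). At KCl 1h the r of 0.944 fell to 0.753 without UBE2C, and at JTE 1h the r of 0.837 fell to 0.485. At IM 1h, r was still 0.806, with 35 genes of the same sign. There the fits without a block called none of the 47 genes in either fraction, and the blocked nuclear fit called CENPE and CENPF. A high r was thus found also with few or no called changes. Genes are not independent replicates, and these values are descriptions. The direct test of the difference between the fractions called none of the 47 genes for IM 18h (edgeR; background 0.0901%) and none for KCl 1h (background 0.668%), with none at an unadjusted p under 0.05 and none with DESeq2 for either treatment. Its intervals were wide. For ESPL1 the nuclear response to IM 18h was 0.50 lower than the mRNA response on the log2 scale (-0.50, 95% interval -1.01 to 0.00), and only 29 of the 47 intervals lay within 0.6 of 0.

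**Figure D4:**
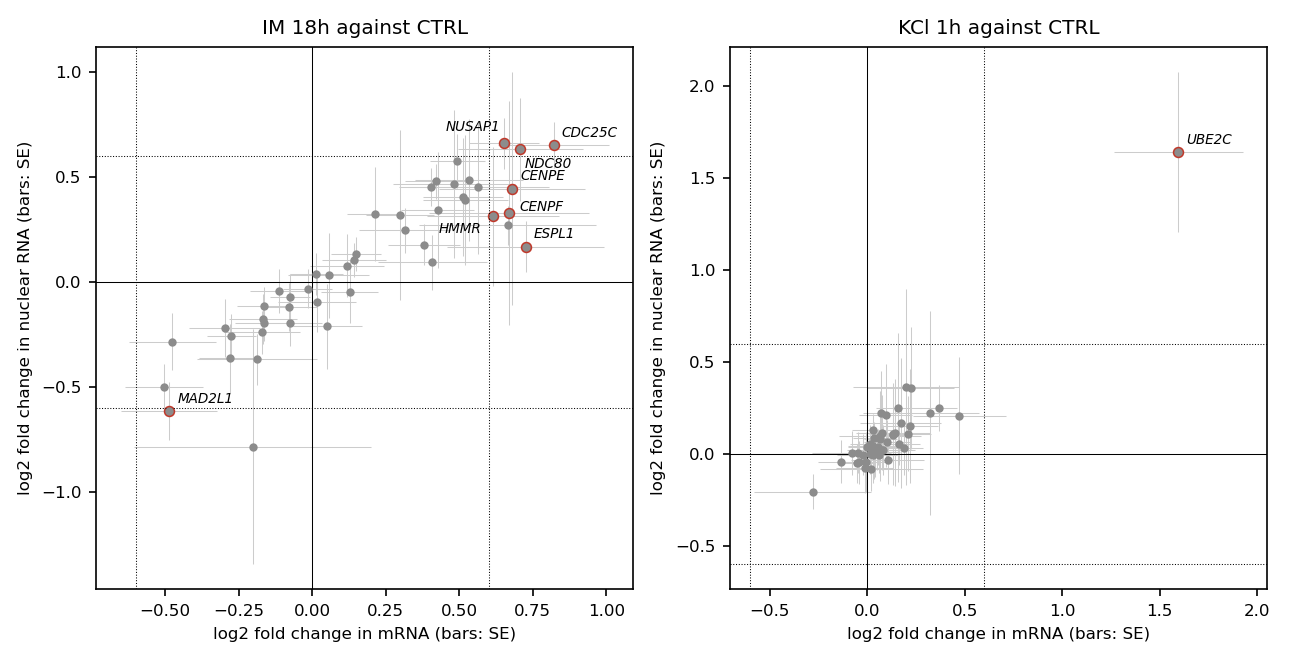
Log2 fold change in nuclear RNA (vertical) against that in mRNA (horizontal) for the 47 genes (points, bars are SE) at IM 18h (left) and KCl 1h (right); dotted lines mark 0.6 and red rings mark genes called in either fraction. At IM 18h, 44 genes share the sign; at KCl 1h, UBE2C stands alone.

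JTE 1h called 1 gene in mRNA, UBE2C, which was higher (background 0.387% higher and 0.464% lower), and the same gene in nuclear RNA (background 7% higher and 1.51% lower). With the replicate block, a fit that these backgrounds do not cover, nuclear JTE 1h also called CENPF higher (log2 0.70 ± 0.11 SE, edgeR adjusted p = 0.00029). At JTE 6h, 1 gene was called higher and 3 lower (background 6.73% higher and 6.47% lower), with 8 genes at an adjusted p under 0.05. The median over the 47 genes was 0.09, against 0.03 over all genes. At JTE 18h, none was called higher and 2 were called lower (background 3.29% higher and 2.09% lower). The median there was -0.10 against -0.01, with 31 of the 47 fold changes below 0 and 4 genes at an adjusted p under 0.05.

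The 3 genes lower at JTE 6h were CDC25B, SPC24 and CENPA. CDC25B, the phosphatase that first activates CDK1 at the centrosome, was at 43.9, 52.0 and 44.9 CPM in CTRL, at 22.5, 28.0 and 19.9 CPM at JTE 6h and at 38.9, 51.2 and 38.7 CPM at JTE 18h. The JTE 6h libraries were far below CTRL and the JTE 18h libraries overlapped it. The fold was 0.499 at 6 h (95% interval of the log2 fold change -1.28 to -0.72, SE 0.13, edgeR adjusted p = 8.23e-06), and the direct test of 18 h against 6 h gave a return of 0.87 ± 0.13 SE (edgeR adjusted p = 6.99e-05). SPC24 was at 54.6, 61.5 and 31.5 CPM in CTRL, at 28.4, 31.9 and 15.1 CPM at JTE 6h and at 58.8, 68.7 and 62.8 CPM at JTE 18h. JTE 6h and CTRL overlapped through CTRL replicate 3, and JTE 18h lay above all of JTE 6h. Its log2 fold change was -0.97 ± 0.31 SE at 6 h (edgeR adjusted p = 0.0292, lost on dropping replicate 1 or 2 of CTRL, or replicate 1 or 3 of JTE 6h) and 1.34 ± 0.31 SE from 6 to 18 h (edgeR adjusted p = 0.00337).

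CENPA was at 25.8, 33.0 and 25.3 CPM in CTRL and at 21.1, 17.5 and 13.4 CPM at JTE 6h, below CTRL in each library (log2 -0.70 ± 0.21 SE, edgeR adjusted p = 0.0191). The call was lost on dropping replicate 2 of CTRL or replicate 3 of JTE 6h. The Aurora kinase AURKB fell by 0.51 on the log2 scale (edgeR adjusted p = 0.000372), CDC20 by 0.42 and SPC25 by 0.48, all inside the fold threshold. SPC25 was at 51.8, 47.8 and 54.3 CPM at JTE 6h and at 79.7, 72.8 and 84.7 CPM at JTE 18h, a rise of 0.62 ± 0.15 SE on the log2 scale (edgeR adjusted p = 0.0037) that was lost without JTE 6h replicate 2 or JTE 18h replicate 3. In all, JTE 18h against JTE 6h called 3 genes higher and 1 lower (background 7.76% higher and 5.68% lower), and 3 to 6 genes when single libraries were left out. Outside these, the genes called higher at IM 6h showed no called change with JTE 6h: CDC25C had 0.07 (95% interval -0.32 to 0.47), NDC80 0.18 (-0.25 to 0.62) and NUSAP1 0.19 (-0.06 to 0.43). The other genes called higher at IM 18h were also not called at JTE 6h, with wide replicate values. There ESPL1 was at 82.0, 91.0 and 51.8 CPM and CENPE at 217, 127 and 117 CPM. CENPF was at 472, 344 and 231 CPM and HMMR at 251, 153 and 132 CPM.

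At JTE 18h the lower genes were CDC20 and the mitotic kinase PLK1. CDC20 was at 144, 133 and 156 CPM in CTRL, at 97.7, 129 and 96.6 CPM at JTE 6h and at 83.7, 80.3 and 80.9 CPM at JTE 18h. No JTE library of 6 or 18 h reached the CTRL values. The fold at 18 h was 0.565 (log2 -0.82 ± 0.11 SE, edgeR adjusted p = 2.05e-05), and the call held without any 1 library. PLK1 was at 149, 143 and 152 CPM in CTRL and at 94.9, 107 and 90.0 CPM at JTE 18h, also without overlap. Its log2 fold change of -0.60 ± 0.12 SE (edgeR adjusted p = 0.00221) sat at the threshold, and the call was lost on dropping replicate 1 or 3 of either group, and with another scaling or with DESeq2. The Aurora kinase AURKA fell by 0.53 on the log2 scale (edgeR adjusted p = 0.000549) and CDCA8 by 0.33 (edgeR adjusted p = 0.0387). None of the checkpoint, kinetochore, motor, cytokinesis or condensation genes had an adjusted p under 0.05, and 5 of them in all had an unadjusted p under 0.05. All 5 checkpoint genes had fold changes below 0, with a median of -0.18.

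The 2 inhibitors were compared directly at 18 h, with no CTRL library in the contrast. IM 18h was higher than JTE 18h for 7 genes and lower for 2 (background 16.7% higher and 13.6% lower). The median difference was 0.26 against 0.04 over all genes, and 41 of the 47 genes were higher with IM. In 31 genes all IM libraries lay above all JTE libraries, and in 4 genes they lay below (background 31.9% of all genes tested above and 29.4% below). KIF20A, the kinesin of the central spindle, was at 87.4, 80.0 and 95.3 CPM with IM and at 43.8, 44.7 and 46.4 CPM with JTE (log2 0.96 ± 0.19 SE, edgeR adjusted p = 0.000253). KIF18A, which dampens chromosome oscillation, was at 64.8, 63.9 and 62.2 CPM with IM and at 38.2, 37.2 and 32.7 CPM with JTE (log2 0.82 ± 0.24 SE, edgeR adjusted p = 0.00808). The checkpoint kinase TTK was at 118, 114 and 112 CPM with IM and at 74.7, 71.7 and 71.8 CPM with JTE (log2 0.66 ± 0.21 SE, edgeR adjusted p = 0.0135). These 3 genes were not called against CTRL with either inhibitor.

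CENPE, at 121, 82.5 and 104 CPM with JTE 18h, was 0.90 ± 0.25 SE higher with IM on the log2 scale (edgeR adjusted p = 0.00563). CDC25C was 0.75 ± 0.19 SE higher (edgeR adjusted p = 0.00244), NDC80 0.74 ± 0.21 SE higher (edgeR adjusted p = 0.00722) and CENPF 0.71 ± 0.27 SE higher (edgeR adjusted p = 0.0393). SPC25 was lower with IM by 0.62 ± 0.15 SE (log2 -0.62, edgeR adjusted p = 0.00163), as was UBE2C (log2 -1.04 ± 0.37 SE, edgeR adjusted p = 0.0252). The calls of CDC25C, CENPE, NDC80, KIF18A and KIF20A held without any 1 library. That of TTK was lost without JTE 18h replicate 3, that of SPC25 without IM 18h replicate 1 or JTE 18h replicate 3, and that of UBE2C without IM 18h replicate 1 or 2 or JTE 18h replicate 1 or 3. The call of CENPF was lost whichever of the 6 libraries was left out, and the number of called genes ran from 5 to 10.

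KCl called UBE2C and no other of the 47 genes at 1 h in mRNA (background 2.51% higher and 2.94% lower), at 3 h in mRNA (background 4.55% and 7.33%) and at 1 h in nuclear RNA (background 15.3% and 8.5%). In mRNA, 40 of the 47 intervals at 1 h and 37 at 3 h lay within 0.6 of 0. ANLN rose by 0.37 ± 0.09 SE at 1 h (edgeR adjusted p = 0.0162) and by the same 0.37 ± 0.09 SE at 3 h (edgeR adjusted p = 0.00663). AURKA was at 133, 145 and 142 CPM in CTRL and at 207, 183 and 226 CPM at KCl 3h, above CTRL in each library (log2 0.55 ± 0.09 SE, edgeR adjusted p = 0.000116). It rose between 1 and 3 h by 0.42 ± 0.09 SE (edgeR adjusted p = 0.00615), the only one of the 47 genes with an adjusted p under 0.05 in that contrast, in which none was called by edgeR (background 3.29%) or DESeq2 and 5 had an unadjusted p under 0.05. KIF20A, at 0.55 ± 0.19 SE, and PTTG1, at 0.31 ± 0.09 SE, also had an adjusted p under 0.05 at 3 h.

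UBE2C was the gene called most often, in 6 of the 12 comparisons with CTRL, at the lowest level of the 47. In mRNA it passed the filter on low counts through its JTE and KCl libraries, so its mRNA calls are not independent of that filter. Its counts in mRNA were 10, 6 and 8 in CTRL, 27, 26 and 33 at JTE 1h, 36, 34 and 64 at JTE 6h, 17, 9 and 18 at JTE 18h, 18, 87 and 65 at KCl 1h and 15, 21 and 24 at KCl 3h. At IM 18h they were 5, 7 and 9. In CPM, CTRL was at 0.551, 0.314 and 0.446 and JTE 6h at 2.23, 1.94 and 3.07, and every library of JTE 1h, JTE 6h, KCl 1h and KCl 3h was above CTRL. The log2 fold change was 1.78 ± 0.34 SE at JTE 1h (edgeR adjusted p = 0.00754), 2.46 ± 0.33 SE at JTE 6h (edgeR adjusted p = 7.87e-06), 1.60 ± 0.33 SE at KCl 1h (edgeR adjusted p = 0.0027) and 1.15 ± 0.35 SE at KCl 3h (edgeR adjusted p = 0.0254). From JTE 6h to JTE 18h it fell by 1.62 on the log2 scale (edgeR adjusted p = 0.000527). The calls at JTE 6h and KCl 1h held without any 1 library. That at JTE 1h was lost on dropping replicate 2 of CTRL or replicate 3 of JTE 1h, and that at KCl 3h on dropping replicate 2 or 3 of either group, and with DESeq2.

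In nuclear RNA UBE2C had 5, 22 and 20 counts in CTRL, 77, 31 and 67 at JTE 1h and 35, 44 and 61 at KCl 1h, with every treated library above CTRL. The log2 fold changes were 1.75 ± 0.43 SE (edgeR adjusted p = 0.0125, lost without JTE 1h replicate 1) and 1.64 ± 0.44 SE (edgeR adjusted p = 0.00762). UBE2C lies on the plus strand of chromosome 20 at 45812576 to 45816957 (GRCh38), and the gene DNTTIP1 on the same strand ends 1148 bases before it. DNTTIP1, chosen for this comparison after the UBE2C values were seen, was at 19.2, 21.9 and 18.2 CPM in mRNA CTRL. Its log2 fold change was -0.63 ± 0.13 SE at JTE 6h (edgeR adjusted p = 0.00107), and it was not called in the other comparisons with CTRL. GENCODE also lists 5 processed pseudogenes of UBE2C, and read pairs that mapped to more than 1 place were not counted. The part of the neighbouring gene, of the pseudogenes and of the low counts in the UBE2C values was not tested. An expressed gene on the same strand (at least 10 CPM) ended within 10000 bases before 8 of the 47 genes, a number with no share over all genes beside it. These were CCNA2, CCNB2, PLK1, BIRC5, UBE2C, SPC24, PRC1 and NCAPH.

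**Figure D5:**
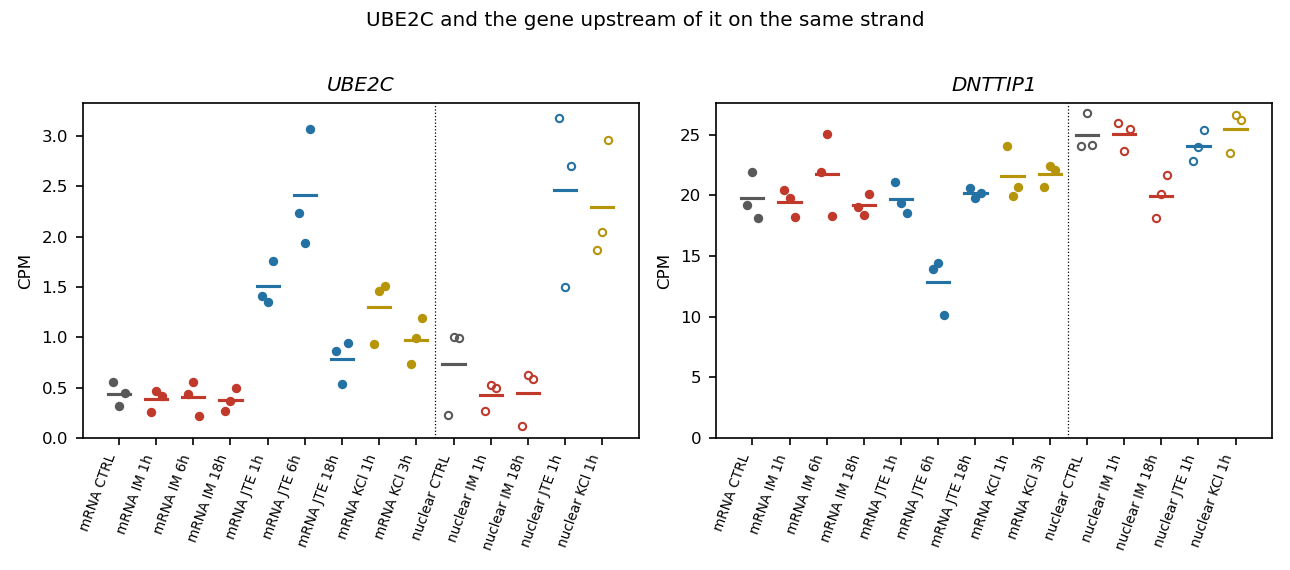
Level in CPM of UBE2C (left) and of DNTTIP1, the gene before it on the same strand (right), in each library (points; filled for mRNA, open for nuclear RNA) with the mean of 3 replicates (bars). UBE2C is above CTRL at JTE 1h, JTE 6h, KCl 1h and KCl 3h; DNTTIP1 dips at JTE 6h.

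Other genes of the same pathways were counted at IM 18h in mRNA (background 17.2% of all genes tested called higher and 13.2% lower). The lists were not tested against that background. Of 25 transcriptional regulators of cell cycle genes, 1 was called higher and 3 lower, with a median of 0.10. The pocket protein RBL2 was higher (log2 0.84), the repressor E2F6 lower (-0.74), and the CDK inhibitor CDKN1A lower (-1.65 ± 0.44 SE, edgeR adjusted p = 0.00401). CDKN1A was at a low level, with a mean of 2.10 CPM in mRNA CTRL and 0.665 CPM at IM 18h. FOXM1, an activator of G2 and M genes, had 0.14 (edgeR adjusted p = 0.527) and MYBL2, its partner on MuvB, 0.17 (edgeR adjusted p = 0.149). Of 17 APC/C subunits and regulators, 2 were called lower, the chain-extending enzyme UBE2S (-1.04) and the subunit ANAPC1 (-0.80). Of 16 cohesin and shugoshin genes, STAG2 was called higher (0.71). Of 30 further kinetochore genes, 3 were called higher, among them DSN1 (0.89) and KNTC1 (0.70). Of 39 further spindle and cytokinesis genes, 2 were called higher and 5 lower, among them CEP55 (-1.19), SAPCD2 (-1.22) and CIT (0.93). Of 46 DNA replication genes, 2 were higher and 2 lower, among them the ligase LIG1 (0.69) and the origin recognition subunit ORC5 (-0.70), with a median of -0.06. At JTE 6h none of these lists held a gene called higher by edgeR (background 6.73%). In the same order, 1, 0, 0, 1, 3 and 5 genes were called lower (background 6.47%). At an unadjusted p under 0.05 the lists held 7, 7, 3, 11, 14 and 19 genes there.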

How the data were processed

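Per the labels and the study's methods, the authors aligned paired reads to the human genome (hg38) with STAR 2.7.7a, with introns longer than 10000 bases not allowed, removed duplicates, and counted uniquely mapped pairs over genes without regard to strand with featureCounts (Subread 2.0.3), leaving out ambiguous pairs. The annotation release is not given in the sources used here. The deposited files hold 2 tables of raw counts, for mRNA and for nuclear RNA, with each column matched to its sample by name and 0 count columns left without a sample. Because strand was not used, reads of overlapping and antisense genes cannot be told apart.

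Gene symbols and positions came from GENCODE 44 (57532 of 58243 identifiers matched). Each fraction was fitted whole with edgeR 4.0.16 in R 4.3.3 (TMM, filterByExpr, robust quasi-likelihood test, Benjamini-Hochberg over all genes tested). The thresholds for a call, adjusted p 0.05 and log2 fold change 0.6, were those of the study's methods. The difference between fractions was fitted as an interaction over the libraries of both. RPKM used union exon lengths. Intervals are 95% intervals. The script was tested on simulated data. Alternatives were DESeq2 1.42.0, other scalings, no filter, fits of 2 groups, a replicate block and leaving out each library.

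The genes and all lists were chosen with earlier results of these data known. Library values were given for the largest IM 18h change and the highest CTRL level of each role group, the 3 largest called changes of the other comparisons, genes called in both directions, and NDC80. Those of AURKA, CENPA, CENPE, CENPF, HMMR, KIF18A, KIF20A, TTK and DNTTIP1 were added after values were seen. Of genes outside the 47, up to 3 a list were named, with FOXM1, MYBL2 and CDKN1A. The value of 1 such gene is not reported here. Replicates differed beyond sampling noise (chi-square per gene from 2.37 to 62.5), and each counted as 1. Deviations from group means correlated between same-numbered libraries of all nuclear groups (0.233 to 0.890), of JTE 18h and JTE 6h (0.111 to 0.322) and of KCl 3h and KCl 1h (0.584 to 0.671) of the mRNA fraction, so numbers were taken to pair those libraries. As the columns are named, the mRNA groups did not pair with CTRL. At IM 1h, for example, the correlations were -0.237 and -0.266 for replicates 1 and 2 and 0.876 for replicate 3. The study's table of read numbers has mRNA CTRL replicates 1 and 2 the other way round, so the numbering of these libraries is uncertain. With them exchanged, an alternative chosen after seeing the data, the correlations with CTRL were 0.830 to 0.876 for IM 1h and 0.843 to 0.868 for JTE 1h. They were 0.0546 to 0.243 for JTE 18h and 0.123 to 0.846 for the other groups. The column names were followed throughout, and blocked mRNA fits are given with both numberings.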

Additional observations from a re-analysis of the deposited data

Results flagged for a closer look

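The response to JTE differed between 6 h and 18 h for 4 of the 47 genes in the direct edgeR test of the mRNA groups, with SPC24 higher at 18 h by 1.34 on the log2 scale, CDC25B by 0.87 and SPC25 by 0.62, and with UBE2C lower (-1.62).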

How the results depend on the processing

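Of 38 calls of 1 of the 47 genes in 1 comparison, 16 held without each library in turn and under every other alternative with the fold threshold, and 22 were lost without at least 1 library. No fold change of a called gene turned its sign. Leaving out 1 library at a time gave 0 to 0 called genes at IM 1h, 1 to 5 at IM 6h, 1 to 11 at IM 18h, 0 to 1 at JTE 1h, 2 to 4 at JTE 6h, 1 to 3 at JTE 18h, 1 to 1 at KCl 1h and 0 to 1 at KCl 3h in mRNA, and 0 to 0 at IM 1h, 2 to 7 at IM 18h, 0 to 1 at JTE 1h and 1 to 1 at KCl 1h in nuclear RNA. It gave 0 to 0 for IM 18h against IM 6h, 3 to 6 for JTE 18h against JTE 6h, 0 to 0 for KCl 3h against KCl 1h, 5 to 10 for IM 18h against JTE 18h, and 0 to 0 for both differences between fractions. With no fold threshold the counts were 11 at IM 6h, 22 at IM 18h, 8 at JTE 6h, 4 at JTE 18h, 2 at KCl 1h and 5 at KCl 3h in mRNA, 10 at nuclear IM 18h, 3 for IM 18h against IM 6h, 14 for JTE 18h against JTE 6h, 1 for KCl 3h against KCl 1h and 21 for IM 18h against JTE 18h, since more genes can pass. With no filter on low counts, 3 genes were called at IM 18h and 0 at KCl 3h. Fits of only the 2 groups called 0 at JTE 1h, 2 at JTE 6h, 1 at JTE 18h and 0 at KCl 3h, from fewer libraries. DESeq2 called 1 at JTE 18h and 0 at KCl 3h, and RLE scaling and total counts each called 1 at JTE 18h. The replicate block called 2 genes at nuclear IM 1h, 2 at nuclear JTE 1h and 5 at mRNA IM 6h, and it moved no other count by over 1.5 times. No share of all genes called is given for the blocked fits. With mRNA CTRL replicates 1 and 2 exchanged, chosen after seeing the data, the block again called 5 at mRNA IM 6h and the same genes in every mRNA comparison. Beside ESPL1 and SPC24 at IM 6h and SPC24 at IM 18h, the block added no mRNA call and lost none. Apart from the fits with fewer libraries or no threshold, the cause was not tested. Depth limits UBE2C, with 6 to 10 counts in mRNA CTRL.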
